A study of Mus musculus with 6 samples.

Results

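Polycomb repressive complex 1 (PRC1) is described here through 9 of its genes in mouse embryonic stem (mES) cells, chosen by name from the 16668 genes listed. Of these, 5 encode subunits of canonical PRC1, namely the chromobox readers Cbx2, Cbx7 and Cbx8 and the polyhomeotic scaffolds Phc1 and Phc2. The other 4 encode partners of variant PRC1, namely Kdm2b and Bcor of the complex called PRC1.1, and L3mbtl2 and E2f6 of the complex called PRC1.6. All 9 genes were listed above 0 in each of the 6 libraries, and all 9 passed the filter on low values, a mean RPKM of 0.5 or more, that left 11538 genes. RPKM is a number of reads divided by exon length and by the depth of the library.

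As background, every PRC1 holds a Ring1A or Ring1B ligase and a Pcgf protein, which together place ubiquitin on histone H2A. Canonical complexes add a Cbx protein, which reads the trimethylated lysine that Polycomb repressive complex 2 leaves on histone H3, and a Phc protein, which can join complexes to each other. Variant complexes hold Rybp or Yaf2 in place of a Cbx protein and reach chromatin in other ways, such as through the CpG-binding domain of Kdm2b, or through E2f6 and Mga at promoters of germline genes.

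RNA-seq was performed on E14 mES cells of the strain 129/Ola at passage 3 to 5, grown without feeders in medium with 2 kinase inhibitors and LIF (2i + LIF). The labels gave 3 groups of 2 libraries: control (genotype entered as wild type), Ring1B-KD (knockdown of Ring1B, the H2A ligase encoded by Rnf2) and Dzip3-KD (the same for Dzip3, which also ubiquitinates H2A). According to the methods of the study, knockdown was by transfection of siRNA, so that a library averages cells that took up different amounts. The study describes the 2 libraries of a group as biological duplicates.

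Each deposited list also carried a number and a condition word, and the word differed from the label in 4 of the 6 libraries. Numbers 1 to 3 are called the first set here, and numbers 4 to 6 the second set. In the first set, the words control, Ring1BKD and Dzip3KD stood beside the labels control 1, control 2 and Ring1B-KD 1. In the second set, they stood beside the labels Ring1B-KD 2, Dzip3-KD 1 and, last, Dzip3-KD 2. Word and label were the same only for control 1 and Dzip3-KD 2. Tests between groups used the labels. Values are also set side by side by file word within each set, with 1 library per word and therefore without a test.

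Of the targeted genes, Rnf2 went against the labels and Dzip3 did not separate labels from file words. Rnf2 was at 30.6, 20.4 and 26.8 RPKM under the file words control, Ring1BKD and Dzip3KD of the first set, and at 28.8, 19.4 and 28.2 RPKM in the second set. Its lowest values were those of the libraries labelled control 2 and Dzip3-KD 1, both with the file word Ring1BKD. Dzip3 was at 2.24, 2.68 and 1.18 RPKM in the first set and at 1.89, 1.70 and 1.31 RPKM in the second set, and it was lowest in each set under the file word Dzip3KD (labels Ring1B-KD 1 and Dzip3-KD 2). These values of Dzip3 rest on few reads, 39, 53 and 23 in the first set and 36, 32 and 27 in the second. Read by label, Dzip3 in the control libraries also exceeded its level in either Dzip3-KD library, with a log2 difference of -0.47 (SE 0.24, limma adjusted p = 0.458), and the difference for the label Ring1B-KD was -0.46 (SE 0.24, limma adjusted p = 0.902). Which of label and word is right was not tested, so every direction below holds for the names as given.

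The cell type was checked against markers. The 6 mES cell markers (Pou5f1, Sox2, Nanog, Zfp42, Esrrb and Tfcp2l1) summed to between 933 and 1264 RPKM per library. The 4 listed fibroblast markers summed to at most 3.10 RPKM, the 4 primitive endoderm markers to at most 0.952 RPKM, the 2 listed trophectoderm markers to at most 2.49 RPKM, and the 3 neural markers to at most 3.24 RPKM. Between 3015349 and 3583612 mapped reads per library were recovered from the values, at which 3 reads on a transcript of 2 kb equal 0.419 to 0.497 RPKM. The 3 libraries of the first set lay all above or all below those of the second for 15.5% and 13.1% of genes, and the label control occurs only among the former and Dzip3-KD only among the latter. The set and the contrast of labelled Dzip3-KD with control therefore cannot be told apart. In bulk samples, fewer cells of a type and less RNA per cell cannot be told apart either.

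Promoter sequences are shown for E2f6 and Cbx8, members with matches to the motifs searched, and for 3 germline genes of the kind known to be bound by E2f6 and its partners, whose values are given further on. They are RefSeq promoters on GRCm38.p6, from 250 bases before to 50 bases after the start, and coordinates on this build are not those of the mm9 build used for the values. Capitals mark GCGGGA or its complement TCCCGC, a core of E2F sites, and CACGTG, an E-box of the kind bound by Mga and Max. Both strands were searched. The E2f6 promoter (chr12:16810715-16811014, plus strand) held 1 E2F core and 0 E-boxes, and that of Cbx8 (chr11:119040864-119041163, minus strand) held 2 cores and 1 E-box. Mael (chr1:166238695-166238994, minus strand) held 2 cores and 1 E-box, Ddx4 (chr13:112652261-112652560, minus strand) held 1 of each, and Dazl (chr17:50293571-50293870, minus strand) held 0 of either.
E2f6: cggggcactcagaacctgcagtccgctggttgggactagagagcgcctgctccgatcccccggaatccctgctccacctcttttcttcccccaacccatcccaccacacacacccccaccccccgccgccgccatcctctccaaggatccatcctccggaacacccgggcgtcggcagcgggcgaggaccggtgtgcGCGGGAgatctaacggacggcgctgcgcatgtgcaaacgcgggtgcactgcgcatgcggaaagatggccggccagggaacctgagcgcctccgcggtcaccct
Cbx8: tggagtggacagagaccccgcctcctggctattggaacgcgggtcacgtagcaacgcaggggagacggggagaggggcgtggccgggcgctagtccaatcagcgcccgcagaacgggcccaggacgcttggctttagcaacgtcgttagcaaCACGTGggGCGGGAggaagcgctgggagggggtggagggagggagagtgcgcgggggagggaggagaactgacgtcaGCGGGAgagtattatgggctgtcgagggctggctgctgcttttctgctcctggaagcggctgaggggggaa
Mael: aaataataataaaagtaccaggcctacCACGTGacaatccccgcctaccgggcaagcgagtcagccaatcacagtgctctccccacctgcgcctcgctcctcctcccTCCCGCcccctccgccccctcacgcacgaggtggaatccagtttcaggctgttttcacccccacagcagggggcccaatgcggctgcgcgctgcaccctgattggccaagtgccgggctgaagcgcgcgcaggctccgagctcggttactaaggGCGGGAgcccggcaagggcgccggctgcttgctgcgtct
Ddx4: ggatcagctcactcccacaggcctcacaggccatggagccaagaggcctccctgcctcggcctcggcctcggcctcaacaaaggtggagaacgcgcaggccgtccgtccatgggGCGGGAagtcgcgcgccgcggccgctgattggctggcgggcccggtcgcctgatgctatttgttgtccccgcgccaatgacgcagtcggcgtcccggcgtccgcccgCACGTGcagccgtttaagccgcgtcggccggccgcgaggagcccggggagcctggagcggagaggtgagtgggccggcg
Dazl: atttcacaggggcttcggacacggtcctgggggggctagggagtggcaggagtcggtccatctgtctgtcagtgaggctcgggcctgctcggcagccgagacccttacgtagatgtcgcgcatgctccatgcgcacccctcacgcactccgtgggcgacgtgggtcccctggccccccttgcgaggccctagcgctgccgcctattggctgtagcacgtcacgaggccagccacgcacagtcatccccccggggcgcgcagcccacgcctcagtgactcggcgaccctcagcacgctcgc

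Of all 32851 promoters of this length, 20.0% held the E2F core and 7.15% the E-box, and the median number of CpG was 7. Promoters were matched for 8 of the 9 members. The E2F core occurred in 3 of the 8 genes (Cbx8, E2f6 and Kdm2b) and the E-box in 2 (Cbx8 and Phc2), counting any of a gene's promoters. The number of CpG was 33 for Cbx7, 29 for E2f6, 24 for Cbx8, 21 for both Bcor promoters, 17 for L3mbtl2 and 9 for Phc1. Kdm2b had 4 promoters with 18 to 49 CpG, and Phc2 had 3 with 2 to 45. A match of letters is a description and does not show binding.

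The order of the member levels was examined first, with RPKM as the level per exon length. Cbx7 and Phc1, both canonical, were the highest members, with means of 41.5 ± 5.19 and 40.7 ± 6.30 RPKM (SD, n = 6), at percentiles 95.7 and 95.6 of all genes tested. The variant partners L3mbtl2 and Kdm2b followed at 14.3 ± 1.47 and 8.40 ± 1.01 RPKM. Cbx2, Bcor, E2f6 and Phc2 lay between 4.41 and 6.73 RPKM, and Cbx8 was the lowest at 2.09 RPKM, at percentile 27.1. The canonical members thus held both ends of the order, and the 4 variant members lay between 5.27 and 14.3 RPKM. The summed RPKM of the 5 canonical members was 2.39 to 3.36 times that of the 4 variant members, and Cbx7 with Phc1 made up most of it. This ratio depends on the genes chosen and does not compare amounts of the complexes. Outside the members, Rybp, Max and Yaf2 of variant complexes averaged 25.7, 24.9 and 2.46 RPKM. The canonical Cbx6 and Phc3 averaged 12.7 and 2.96 RPKM.

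**Figure D1:**
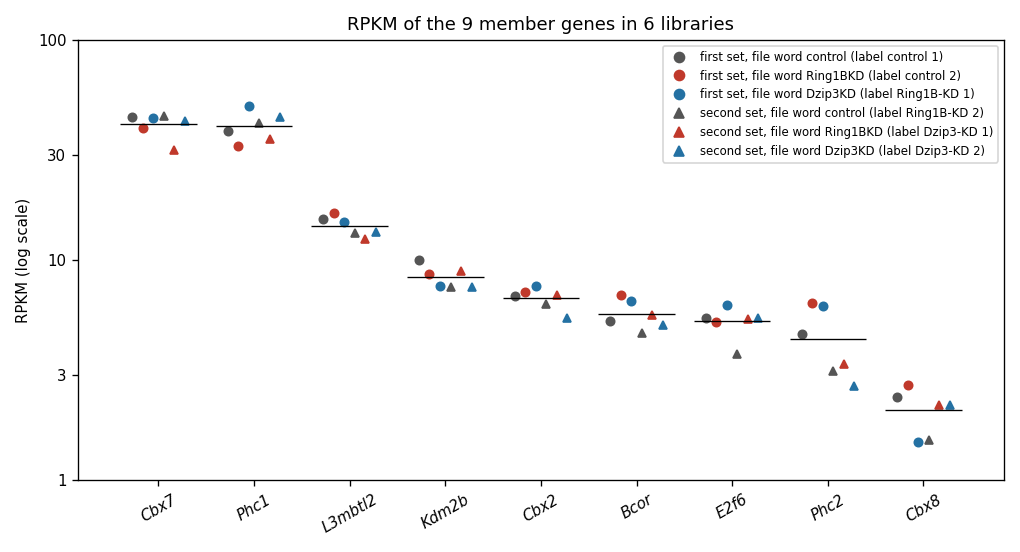
RPKM (log scale) of the 9 genes in each of the 6 libraries, ordered by mean. Circles are the first set, triangles the second set, colours the file word, and black lines the mean over 6 libraries. Cbx7 and Phc1 lie between 31.7 and 50.3 RPKM, above all other members in every library, while Cbx8 is lowest in every library.

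Neighbours in this order were compared within libraries by an exact two-sided sign-flip permutation test on log2(RPKM + 1). The 5 pairs Phc1 over L3mbtl2, L3mbtl2 over Kdm2b, Kdm2b over Cbx2, Cbx2 over Bcor and Phc2 over Cbx8 kept 1 direction in 6 of 6 libraries. Their mean differences were 1.44, 0.71, 0.28, 0.21 and 0.77. Each had an exact permutation p of 0.03125, the smallest that 6 libraries allow, and 0.05 after adjustment over the 8 pairs. An adjusted p of 0.05 is not under the threshold of 0.05 used for the contrasts. The order was taken from these same libraries, control and knockdown together, which set the direction of each pair beforehand. The p-values therefore describe how steady the order was and give it no independent support. Cbx7 and Phc1 did not differ beyond their spread, as each was the higher in 3 of 6 libraries (difference 0.03 ± 0.19, exact permutation p = 0.719). Bcor against E2f6 (higher in 4 of 6, exact permutation p = 0.281) and E2f6 against Phc2 (5 of 6, exact permutation p = 0.219) did not keep 1 direction either. Ordered by the 2 libraries labelled control, only E2f6 and Phc2 changed places.

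The chromobox readers were led by Cbx7, the chief Cbx protein of undifferentiated mES cells. Cbx7 (chr15:79746237-79801549 on mm9, minus strand) was at 44.9, 39.7 and 44.4 RPKM under the file words control, Ring1BKD and Dzip3KD of the first set, and at 45.3, 31.7 and 42.9 RPKM in the second set. Its lowest value in each set was that of the file word Ring1BKD, and the other 4 libraries lay within 42.9 to 45.3 RPKM. Cbx2, a reader with a strong ability to compact chromatin, was at 6.92, 7.17 and 7.61 RPKM in the first set and at 6.31, 6.96 and 5.45 RPKM in the second. No file word was lowest for Cbx2 in both sets. Cbx8, a reader that takes over from Cbx7 in differentiated cells, was at 2.38, 2.72 and 1.49 RPKM in the first set and at 1.52, 2.20 and 2.20 RPKM in the second. These values of Cbx8 rest on 7 to 13 reads per library.

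Of the summed RPKM of Cbx2, Cbx6, Cbx7 and Cbx8, Cbx7 made up 65.6 ± 3.65% (SD, n = 6), with a range of 59.7% to 69.6%. Cbx6, which is not a member, held 18.0% to 23.1% and Cbx2 8.83% to 13.1%. The share of Cbx7 was lowest in each set under the file word Ring1BKD (62.9% and 59.7%, labels control 2 and Dzip3-KD 1), and the share of Cbx2 was highest in the second of these at 13.1%.

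Among the polyhomeotic scaffolds, Phc1 dominated. Phc1 was at 38.7, 33.2 and 50.3 RPKM under the file words control, Ring1BKD and Dzip3KD of the first set, and at 42.2, 35.5 and 44.7 RPKM in the second set. In both sets the order of the 3 libraries was the same, with Ring1BKD lowest and Dzip3KD highest. The share of all genes that repeat their order was not computed, here or for Bcor and Pcgf2 below. Phc2 was at 4.64, 6.42 and 6.19 RPKM in the first set and at 3.12, 3.37 and 2.69 RPKM in the second, so that the sets did not overlap. Phc1 held 84.5 ± 3.56% of the summed RPKM of Phc1, Phc2 and Phc3 (SD, n = 6). Phc2 held from 5.32% (label Dzip3-KD 2) to 15.2% (label control 2).

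**Figure D2:**
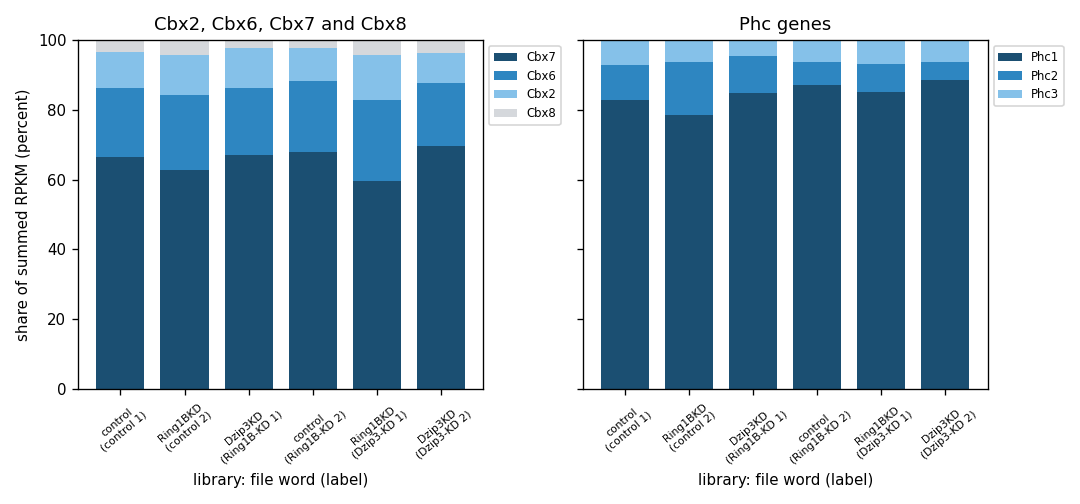
Share (percent) of the summed RPKM of Cbx2, Cbx6, Cbx7 and Cbx8 (left) and of the Phc genes (right) in each of the 6 libraries, named by file word with the label in brackets. Cbx7 holds 59.7% to 69.6% and Phc1 78.5% to 88.5% in every library.

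For PRC1.1, Kdm2b, a histone demethylase that recruits the complex to CpG islands, was at 10.1, 8.68 and 7.61 RPKM under the file words control, Ring1BKD and Dzip3KD of the first set, and at 7.60, 8.94 and 7.53 RPKM in the second set. It was lowest under Dzip3KD in both sets. Bcor, the corepressor that binds Pcgf1, was at 5.30, 6.95 and 6.55 RPKM in the first set and at 4.66, 5.63 and 5.10 RPKM in the second, with the same order of the 3 words in both sets. Bcor exceeded its paralog Bcorl1 in every library, with 63.8% to 72.4% of their sum, whereas Kdm2b and Kdm2a were near each other (Kdm2b share 39.5% to 55.7%).

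For PRC1.6, L3mbtl2, an MBT-domain protein that binds chromatin, was at 15.4, 16.4 and 14.9 RPKM in the first set and at 13.3, 12.5 and 13.5 RPKM in the second. The 3 libraries of the first set were all above those of the second. E2f6, a repressive member of the E2F family, was at 5.45, 5.26 and 6.29 RPKM in the first set and at 3.76, 5.40 and 5.48 RPKM in the second. It was lowest in the library labelled Ring1B-KD 2, on 31 reads. E2f6 made up 6.76% to 10.8% of the summed RPKM of the 8 E2F genes, and it rests on 31 to 53 reads per library.

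The labelled groups were then compared with limma on log2(RPKM + 1), with all 6 libraries in 1 fit. No gene was called at an adjusted p under 0.05, so the background was 0% and the members called were 0 of 9 for Ring1B-KD against control, for Dzip3-KD against control and for Dzip3-KD against Ring1B-KD. At an unadjusted p under 0.05, 589, 1411 and 534 of the 11538 genes passed in these comparisons, with 1, 1 and 0 members among them. Adjusted p-values of the members (limma) ran from 0.902 to 0.996, from 0.401 to 0.980 and from 0.864 to 0.982. A p that misses the threshold does not show that levels were equal.

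In Ring1B-KD against control, Cbx8 had the largest difference among the members, -0.50 on the log2 scale (SE 0.21, limma unadjusted p = 0.0405, adjusted p = 0.902). Phc1 was listed at 50.3 and 42.2 RPKM for the label Ring1B-KD and at 38.7 and 33.2 RPKM for control, without overlap, with a difference of 0.35 (SE 0.19). Phc1 was the only member with both libraries higher, against a background of 14.9% of all genes. Cbx8, Kdm2b and L3mbtl2 had both libraries lower, against a background of 18.9%.

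In Dzip3-KD against control, Phc2 differed most, at 3.37 and 2.69 RPKM against 4.64 and 6.42 RPKM, a difference of -0.69 (SE 0.29, limma unadjusted p = 0.0432, adjusted p = 0.401). With the set as a block the difference of Phc2 was 0.11, and this fit compares the groups only through the libraries labelled Ring1B-KD. Both libraries were lower for Phc2, Cbx8 and L3mbtl2 (background 30.3%) and both were higher for 0 members (background 20.4%). Phc2 and L3mbtl2 were also the 2 members with all 3 libraries of the first set above all 3 of the second (background 15.5%), and 0 members had them all below (background 13.1%). In Dzip3-KD against Ring1B-KD, Cbx8 had both libraries higher (background 12.6%) and Cbx7 both lower (background 20.4%).

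**Figure D3:**
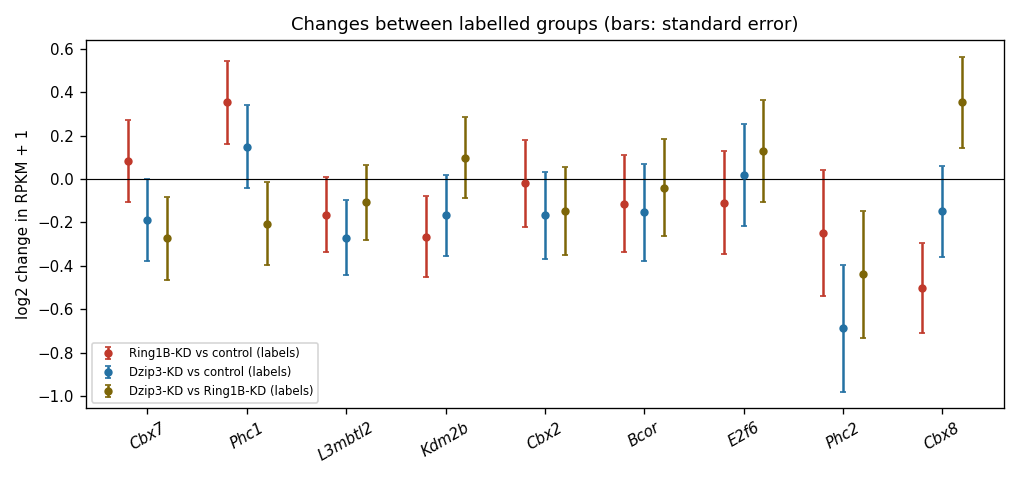
Difference in log2(RPKM + 1) between labelled groups for the 9 genes, with bars of 1 standard error from limma. Phc2 in Dzip3-KD against control (-0.69) and Cbx8 in Ring1B-KD against control (-0.50) lie farthest from 0, and no member passes the adjusted threshold in any of the 3 contrasts.

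Values were next set side by side by file word within each set. Ratios are given with exact 95% intervals from the recovered reads, which cover counting error only. Under the file word Ring1BKD (labels control 2 and Dzip3-KD 1), Phc1 was at 0.858 times the control word in the first set (interval 0.752 to 0.979) and at 0.840 times in the second (0.741 to 0.953). Phc1 was the only 1 of the 8 members with recovered reads whose intervals lay below 1 in both sets, where 2.2% of 10679 genes did so, and 0 members lay above 1 in both, where 1.28% did. Such intervals narrow as reads rise, and Phc1 had 448 to 668 reads per library against 7 to 13 for Cbx8. The shares cover genes of all depths and are not a like background for a gene with so many reads. After scaling to a common 75th percentile, the interval of Phc1 was 0.829 to 1.08 in the first set and 0.820 to 1.06 in the second, so that both held 1. That scaling moved the median difference of all genes from -0.06 to 0.06 in the first set and from -0.11 to 0.01 in the second.

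Cbx7 was at 0.884 times the control word in the first set (interval 0.766 to 1.02) and at 0.701 times in the second (0.603 to 0.814). The scaled interval of the second set, 0.668 to 0.901, also lay below 1. Rnf2 itself, measured the same way, was at 0.668 times (0.556 to 0.801) and 0.674 times (0.559 to 0.812). Bcor was at 1.31 times the control word in the first set (1.03 to 1.68) and at 1.21 times in the second (0.929 to 1.58). For Bcor the scaled intervals, 1.13 to 1.85 and 1.03 to 1.74, lay above 1 in both sets. Scaling raised the ratios to the control word of genes in general. The share of all genes with scaled intervals so placed was not computed, for Bcor or for Cbx7, so these are values without a background.

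By direction alone, Cbx2, Cbx8, Phc2 and Bcor were higher under Ring1BKD in both sets, 4 of 9 members against 18.5% of the genes tested. Cbx7 and Phc1 were lower in both, 2 of 9 members against 40.6%. Kdm2b, L3mbtl2 and E2f6 changed direction between the sets. After scaling to the 75th percentile L3mbtl2 and E2f6 were also higher in both, which made 6 of 9 members higher against 29% of all listed genes, and Cbx7 and Phc1 were still lower against 19.1%. All listed genes include those below the filter, and without scaling 18.9% of them were higher and 31.4% lower. No member was over 1.5-fold higher in both sets (background 3.4%) or over 1.5-fold lower (background 2.54%).

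Under the file word Dzip3KD (labels Ring1B-KD 1 and Dzip3-KD 2), Phc1 was at 1.30 times the control word in the first set (interval 1.15 to 1.47) and at 1.06 times in the second (0.944 to 1.19). Kdm2b was at 0.757 times (0.599 to 0.955) and 0.991 times (0.778 to 1.26). For E2f6 the ratios were 1.16 and 1.46, and both intervals held 1. Phc1, Bcor and E2f6 were higher in both sets (background 22.3%) and Cbx7 and Kdm2b were lower (background 29.5%). The direction turned after scaling to the 75th percentile for Cbx7 in the first set and Kdm2b in the second, and 4 of 9 members (Phc1, Bcor, L3mbtl2 and E2f6) were then higher in both sets (24.6% of all listed genes) and 0 lower (20.3%). Without scaling 20% of all listed genes were higher and 25.1% lower. No member was beyond counting error in both sets, higher (background 0.571%) or lower (background 1.09%), and none passed 1.5-fold in both, higher (background 2.33%) or lower (background 1.86%).

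Between the file words Dzip3KD and Ring1BKD, the ratio of Phc1 was 1.52 in the first set (interval 1.34 to 1.71) and 1.26 in the second (1.12 to 1.43). Phc1 was the only member above 1 beyond counting error in both sets, where 2.6% of genes were so, and 0 members lay below, where 1.55% did. These shares too cover genes of all depths, most members having fewer reads than Phc1. The scaled intervals of Phc1, 1.32 to 1.68 and 1.02 to 1.31, also lay above 1, and the share of all genes after scaling was not computed. Cbx7 had ratios of 1.12 (0.973 to 1.28) and 1.35 (1.17 to 1.57).

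**Figure D4:**
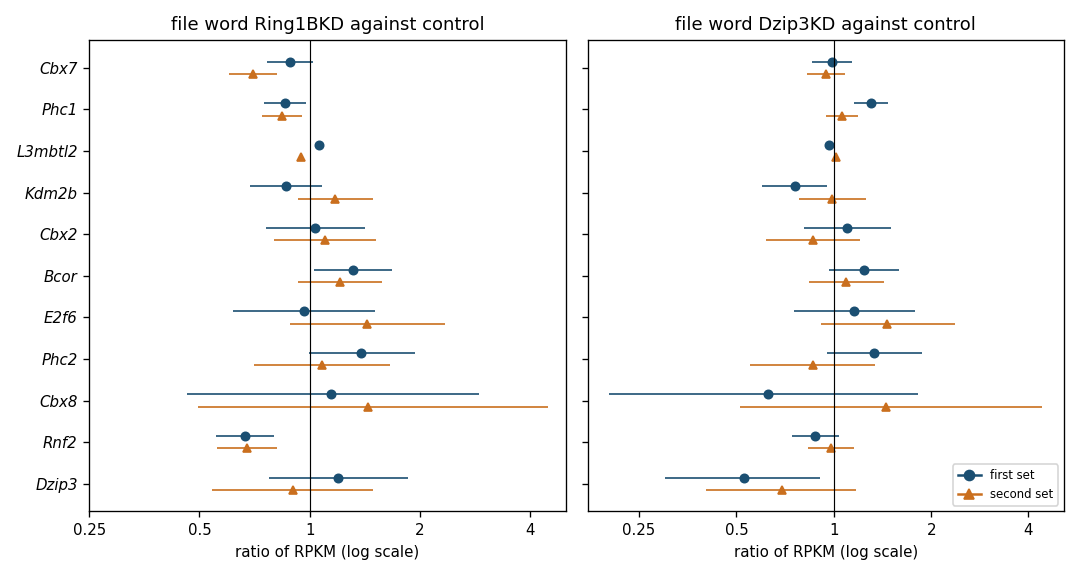
Ratio of RPKM (log scale) between file words within each set for the 9 genes and the targeted genes Rnf2 and Dzip3, with exact 95% counting intervals where reads were recovered (all but L3mbtl2). Under Ring1BKD both intervals of Phc1 and of Rnf2 lie below 1, and for Cbx7 that of the second set does.

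The 2 libraries whose label and file word are the same, Dzip3-KD 2 and control 1, lie in different sets. Between them Phc2 had a ratio of 0.579 (interval 0.381 to 0.872), Kdm2b of 0.749 (0.594 to 0.942) and Phc1 of 1.16 (1.02 to 1.31). The intervals of Cbx2, Cbx7, Cbx8, Bcor and E2f6 held 1, and for L3mbtl2 no interval was available (ratio 0.875).

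The catalytic core and the Pcgf subunits of PRC1 were read from 8 genes. Counts of genes lower or higher in both sets, here and in the next paragraph, stand beside 40.6% and 18.5% of genes tested under Ring1BKD. After scaling they stand beside 19.1% and 29% of all listed genes. Without scaling the shares of all listed genes were 31.4% and 18.9%, and scaled shares of the genes tested were not computed. Under Ring1BKD, Rnf2, Ring1 and Pcgf2 were lower in both sets (after scaling only Rnf2 and Ring1), and Pcgf3, Bmi1 and Pcgf5 were higher with and without scaling. Reads were few for Ring1, at 11 under control and 11 under Ring1BKD in the first set, and 17 and 10 in the second. For Pcgf5 they were 5 and 14, then 5 and 8. Beyond counting error, 0 of the 8 genes were higher in both sets, beside 1.28% of genes. Pcgf2, a Pcgf protein of canonical complexes, was at 9.12, 8.74 and 16.9 RPKM under the file words control, Ring1BKD and Dzip3KD of the first set, and at 9.92, 8.42 and 12.1 RPKM in the second set. Like Phc1 it was thus highest under Dzip3KD and lowest under Ring1BKD in both sets. Its ratio of Dzip3KD to control was 1.86 (interval 1.41 to 2.46) and 1.22 (0.924 to 1.61).

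The other PRC1.6 partners were 13 genes. Under Ring1BKD 9 of the 13 were lower in both sets (40.6% of the genes tested) and 2 were higher (18.5%). Mga, the scaffold of the complex, and its partner Max were among those lower. After scaling 3 were lower (19.1% of all listed genes) and 3 higher (29%), and Mga and Max were no longer lower in both. Mga was at 15.4, 14.3 and 16.6 RPKM in the first set and at 15.2, 12.4 and 15.5 RPKM in the second. The median difference of the 13 partners was -0.06 and -0.17 on the log2 scale, against -0.06 and -0.11 for all genes. Of the 4 other PRC1.1 partners, Bcorl1 was higher in both sets with and without scaling, and Usp7 and Kdm2a were lower only without it. Of the 5 other canonical readers and scaffolds, Scmh1 and Scml2 were higher in both sets with and without scaling, Phc3 was lower in both only without it, and Cbx6 was higher in both only with it. Rybp and Yaf2, which stand in place of a Cbx protein, were both lower under Dzip3KD in both sets, with and without scaling. Without it 29.5% of the genes tested and 25.1% of all listed genes were so, and with it 20.3% of all listed genes. Yaf2 had only 15 reads under control and 14 under Dzip3KD in the first set, and 24 and 17 in the second. Rybp had 370 and 296 reads, then 418 and 408. Of the 7 genes of complexes with Pcgf3 or Pcgf5, 2 were higher and 1 was lower under Ring1BKD, and 5 were higher and 0 lower after scaling. All 6 mES cell markers were lower in both sets under Ring1BKD and also under Dzip3KD (29.5% of the genes tested), and 4 of the 6 were in each case after scaling. The part of these markers in the member values was not tested.

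Germline genes known as targets of E2f6 and PRC1.6 were read as 20 genes, chosen with earlier results of these data known, of which 17 were listed. Under Ring1BKD 12 of the 17 were higher in both sets and 1, Zcwpw1, was lower. Of all listed genes 18.9% were higher and 31.4% lower. Among the 14 past the filter on low values, 9 were higher and 1 lower, beside 18.5% and 40.6% of the genes tested. Beyond counting error only Mael and Dazl were higher in both sets. They were 2 of the 13 past the filter with recovered reads, beside 1.28% of genes. Reads of Zcwpw1 were not recovered, and others were few, such as 0 to 4 per library for Tex101 and 0 to 9 for Tdrd1. After scaling 14 of the 17 were higher (29%) and 0 were lower (19.1%). Under Dzip3KD 5 of the 17 were higher (background 20%) and 5 were lower (background 25.1%). Developmental genes known to be bound by Polycomb were read as 36 genes, of which 35 were listed, and under Ring1BKD 12 of them were higher and 6 were lower, beside the same 18.9% and 31.4%. Tuba3a and Tuba3b are near-identical paralogs between which reads may be split. The genes described next were chosen after their values were seen.

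Dazl, an RNA-binding protein of germ cells, was at 13.5, 23.7 and 12.6 RPKM under the file words control, Ring1BKD and Dzip3KD of the first set, and at 14.9, 26.0 and 14.8 RPKM in the second set. Both values under Ring1BKD (labels control 2 and Dzip3-KD 1) were above the other 4. The ratio to the control word was 1.75 in both sets, with intervals of 1.40 to 2.20 and 1.42 to 2.16. Mael, a factor of transposon silencing, was covered by 6, 19 and 11 reads in the first set and by 1, 19 and 11 in the second, so both file words of a knockdown were above control. Ddx4, a germ cell helicase, had 6, 28 and 5 reads in the first set and 4, 11 and 6 in the second. The promoters of Mael and Ddx4, printed above, held the E2F core and the E-box and that of Dazl held 0 of both. Counting any of a gene's promoters, 10 of the 18 germline genes with a promoter held the E2F core (55.6%) and 9 the E-box (50%). Of all promoters, counted singly, 20.0% and 7.15% did, so the 2 kinds of share are not like for like. Both motifs contain a CpG. The median number of CpG was 24 for the germline genes, taking each gene's highest, and 7 for all promoters. The part of CpG in these shares was not tested. In the labelled contrasts 0 of the 14 germline genes past the filter on low values were called.

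Genes whose pattern over the 6 libraries was most like that of the leading canonical and variant members were sought among the 5509 genes that averaged 5 RPKM or more. For Cbx7 they were Ipmk, Tmem167b and Ubtf, with Pearson r of 0.980, 0.978 and 0.978 over 6 libraries. For L3mbtl2 they were Map2k2, Aldh18a1 and Slc6a8, with r of 0.996, 0.995 and 0.992. These are the highest of 5509 values from 6 libraries that share their sets and are given as a description only.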

How the data were processed

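The authors deposited 1 list of RPKM values per library, that is, reads scaled to exon length and to the mapped reads of the library. According to the methods of the study and the labels, libraries were made with a stranded mRNA kit, run on a MiSeq and aligned to mm9, and replicates were not pooled. The gene annotation and software versions are not given in the sources used here. RPKM does not correct for a change in RNA composition. Whole reads were recovered for 93.4% of the 16668 genes (all 6 values within 0.02 reads of whole multiples of 1 step, exon length 100 to 20000 bp), and the step was scaled to lengths of GENCODE M1. Reads for L3mbtl2 were not resolved. The recovered exon length equalled that of an annotated transcript for 17.6% of the recovered genes and for no member. The reads behind the intervals are therefore inferred. The recovered genes held 29.9% to 34.0% of the mapped reads.

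Contrasts between labelled groups were fitted with limma 3.58.1 (R 4.3.3) on log2(RPKM + 1) with variance trend, for genes whose mean was 0.5 RPKM or more, with Benjamini-Hochberg adjustment over all of them. Fold changes on this scale understate those of low genes. Permutation tests and exact intervals used scipy 1.17.1. The code was tested on simulated data. RPKM comparisons by file word had no test. The members and gene lists were chosen with earlier results of these data known. Text names the members, the targeted genes, leading genes of the lists and, where said, genes chosen after their values were seen. Alternatives covered the pseudocount, filter, scaling, samples in the fit, variance model, replicate block, set block and leaving out libraries. Intervals on reads do not cover PCR duplication.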

Additional observations from a re-analysis of the deposited data

How the results depend on the processing

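The labelled contrasts called 0 genes under every alternative run except for Dzip3-KD against control, which called 24 with the 4 libraries compared alone, 1 with the replicate block and 0 to 27 when 1 library was left out, with 25 without Ring1B-KD 1 and 27 without Ring1B-KD 2. Same-numbered libraries did not deviate together from their group means (correlations of -0.04, -0.24 and 0.04). With 2 libraries per group the deviations mirror each other. The -0.24, for Dzip3-KD against control, thus means that opposite-numbered libraries deviated together. These are control 2 with Dzip3-KD 1, both of the file word Ring1BKD, and control 1 with Dzip3-KD 2. What lies behind this was not tested. A crossed replicate block, added after the data were seen, called 0 genes. The number of neighbouring pairs in the order of levels with 1 direction throughout was 5, with 5 on the RPKM scale, 5 to 6 when 1 library was left out and 6 in the libraries labelled control.

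Members changed direction in 29 cases, and 0 of these differences had passed a test. In Ring1B-KD against control, the set block gave log2 differences of 0.098 for Cbx2, 0.15 for Phc2, 0.095 for Bcor and 0.20 for E2f6, and scaling to the 75th percentile gave 0.0078 for Cbx2. When 1 library was left out, the difference ran from -0.14 to 0.098 for Cbx2, from -0.65 to 0.15 for Phc2, from -0.32 to 0.095 for Bcor and from -0.42 to 0.20 for E2f6. All 4 were above 0 without Ring1B-KD 2, and without control 2 Bcor was as well, at 0.054. In Dzip3-KD against control, the set block gave 0.068 for Cbx2, 0.11 for Phc2 and 0.26 for Bcor. Leaving out 1 library gave -0.40 to 0.023 for Cbx7 (above 0 without Dzip3-KD 1), -0.014 to 0.31 for Phc1 (below 0 without Dzip3-KD 2) and -0.32 to 0.014 for Bcor (above 0 without control 2). In Dzip3-KD against Ring1B-KD, Bcor was at 0.020 after scaling and 0.17 with the set block. Leaving out 1 library gave -0.25 to 0.17 for Bcor (above 0 without Ring1B-KD 1 or Dzip3-KD 2), -0.013 to 0.21 for Kdm2b (below 0 without Dzip3-KD 1) and -0.18 to 0.44 for E2f6 (below 0 without Ring1B-KD 2). Between file words, scaling turned 7 small differences: Cbx7 and L3mbtl2 in the first set for Dzip3KD against control (0.096 and 0.068), Kdm2b in the second (0.0087), L3mbtl2 in the second set for Ring1BKD against control (0.061), E2f6 in the first (0.075), and L3mbtl2 and E2f6 in the second set for Dzip3KD against Ring1BKD (-0.018 and -0.087). The cause was not tested. Depth limits Cbx8 most, with 7 to 13 reads per library.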
